A study of Citrus unshiu with 6 samples.

Results

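Genes for 3 enzymes with which green tissue fixes carbon dioxide were followed through the development of Satsuma mandarin peel. They were the small chain of ribulose bisphosphate carboxylase (rubisco; Cs6g18680), the chloroplast fructose-bisphosphate aldolase 2 (Cs8g08710), and a chloroplast carbonic anhydrase (Cs2g28060). The 3 genes were taken by gene ID from the 23099 genes of the expression table, and all 3 were found in all 6 libraries. They were selected on their measured values in these same libraries, so their levels and differences are given as a description, without a test.

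The study compared peel with roughing disorder (RD peel) with smooth control peel (CK peel) of “Yamashitabeni wase” trees on trifoliate orange rootstocks. CK30, CK80, and CK170 were peel from trees that kept their fruits, sampled 30, 80, or 170 days after full bloom (DAFB). RD30, RD80, and RD170 were peel of the same ages from trees stripped of most fruits at fruit set, on which only a limited number of upward fruits remained. RD and CK peel thus came from different trees with different fruit load, and perhaps different fruit position, and the disorder cannot be told apart from these. The paper describes RD fruit as still colouring at 170 DAFB, when CK fruit were fully coloured. At that age the disorder cannot be told apart from colour stage either. Each condition had 1 library, made from a pool of peel samples, so the spread between fruits or trees is not known and each difference is one between 2 pools.

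Rubisco attaches carbon dioxide to a sugar phosphate in the Calvin cycle of the chloroplast, and its small chains are encoded in the nucleus and imported. Chloroplast aldolase joins triose phosphates into fructose and sedoheptulose bisphosphates on the way back to the acceptor of carbon dioxide, and carbonic anhydrase interconverts carbon dioxide and bicarbonate. The rind of young citrus fruit is green and photosynthetic, and its chloroplasts become chromoplasts as the fruit colours.

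Expression was given as FPKM, a fragment count divided by transcript length and by the mapped total of the library, which allows levels of different genes to be compared. Between 20339 and 20997 genes had an FPKM above 0 in a library. A gene was counted as higher or lower when its FPKM ratio reached 2-fold and the higher of both values reached 1 FPKM. Such a gene was also counted when its other value was 0. The median log2 ratio of RD30 to CK30 over all genes expressed in both was 0.43, so that RD30 was above CK30 for genes in general. The corresponding median was 0.09 at 80 DAFB and -0.11 at 170 DAFB. Of 19 peel markers, 14 reached 1 FPKM in some library, and the summed level of the list was 370.5, 1035 and 731 FPKM in CK peel and 785.7, 882 and 589 FPKM in RD peel at 30, 80, and 170 DAFB. Levels sufficed to test 11 markers of the list in the youngest peel, and 12 at each later stage. RD30 exceeded CK30 by 2-fold for 4 markers, against 25.6% of all genes tested (from the all-gene median, 0 markers and 2421 of 17419 genes). It fell below CK30 by 2-fold for 2 markers, against 6.34%. RD80 exceeded CK80 by 2-fold for 0 markers and fell below it for 4, beside all-gene shares of 5.20% and 4.86%. RD170 exceeded CK170 by 2-fold for 1 marker and fell below it for 3, beside all-gene shares of 8.14% and 10.1%. The 2 most abundant peel markers, the limonene synthases Cs3g04360 and Cs3g04170 of peel oil, were expressed in all 6 libraries. Cs3g04360 had 236.95 to 727.77 FPKM and Cs3g04170 had 63.18 to 182.15 FPKM. The seed storage protein marker Cs1g23800 did not exceed 0.51 FPKM and oleosin 1 (orange1.1t03751) lay between 7.73 and 17.02 FPKM. The pulp marker, a vacuolar proton pump (orange1.1t01399), lay between 78.24 and 150.97 FPKM. Their part in the results below was not tested.

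The rubisco small chain was the most abundant of the 3 transcripts in every library. In CK peel it had 912 FPKM at 30 DAFB, 4419 FPKM at 80 DAFB, and 21.4 FPKM at 170 DAFB. In RD peel it had 2865 FPKM at 30 DAFB, 3842 FPKM at 80 DAFB, and 290.2 FPKM at 170 DAFB. Both peels were thus highest at 80 DAFB and lowest at maturity, but RD peel was already high at 30 DAFB and kept more at 170 DAFB. Among all genes, the transcript ranked 4 by abundance in CK80 and 6 in RD80, and fell to rank 5917 in CK170 and 279 in RD170.

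Aldolase 2 had a similar course at a lower level. It had 189.9 FPKM in CK30, 2787 FPKM in CK80, and 8.23 FPKM in CK170. The corresponding values in RD peel were 1048 FPKM in RD30, 2190 FPKM in RD80, and 202.5 FPKM in RD170. From high to low, its libraries were CK80, RD80, RD30, RD170, CK30, and CK170, and RD170 and CK30 changed places in the order of the rubisco small chain. The small gap between RD170 and CK30 cannot be set against a spread between pools.

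Carbonic anhydrase Cs2g28060 was the weakest of the 3 transcripts in every library. It had 4.50 FPKM in CK30, 339.6 FPKM in CK80, and 2.08 FPKM in CK170. RD peel had 155.8 FPKM at 30 DAFB, 433.2 FPKM at 80 DAFB, and 25.9 FPKM at 170 DAFB. Unlike the other two, it was low in young CK peel as well as in mature CK peel, and its highest library was RD80 rather than CK80. Its order from high to low was RD80, CK80, RD30, RD170, CK30, and CK170. Its rank among all genes was 11776 in CK30 and 521 in RD30.

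**Figure D1:**
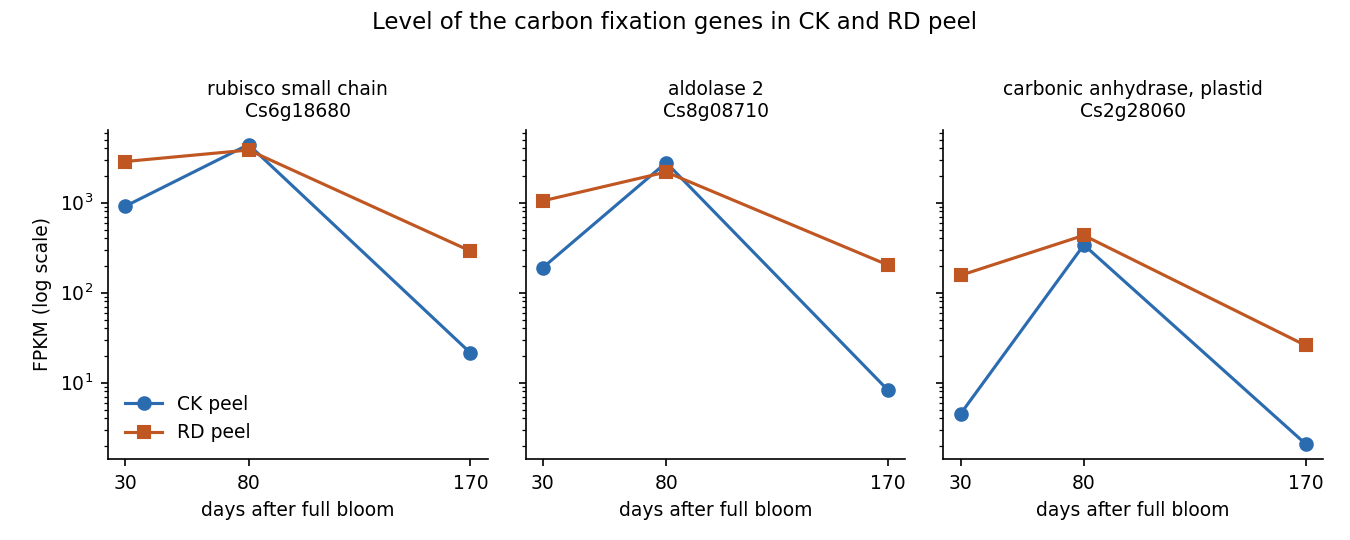
FPKM on a log axis against days after full bloom for the rubisco small chain, aldolase 2, and carbonic anhydrase Cs2g28060, with CK peel as circles and RD peel as squares, 1 pooled library per point. The lines meet at 80 DAFB and are apart at 30 and 170 DAFB, with RD peel on top.

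Summed over the 3 genes, the FPKM made up 0.187% of all FPKM in CK30, 1.24% in CK80, and 0.0054% in CK170. The corresponding shares in RD peel were 0.667%, 1.06%, and 0.0825%. The share was thus highest at 80 DAFB in both peels and lowest in CK170. From the lowest to the highest library the rubisco small chain spanned 206.6-fold, aldolase 2 spanned 338.6-fold, and carbonic anhydrase spanned 208.3-fold. For comparison, the median log2 range of the 14337 genes that reached 1 FPKM in every library was 1.27. In bulk peel, fewer green cells or chloroplasts and less RNA per cell cannot be told apart.

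The proportions of the 3 transcripts also shifted. The rubisco small chain was 4.80 times aldolase 2 in CK30, 1.59 times in CK80, and 2.60 times in CK170, and in RD peel the ratio was 2.73, 1.75, and 1.43 at the same stages. Relative to carbonic anhydrase, the rubisco small chain was 202.7-fold higher in CK30, but between 8.87-fold and 18.4-fold higher in the other 5 libraries. CK30 therefore stood apart, with rubisco transcript abundant and carbonic anhydrase transcript scarce.

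At 30 DAFB all 3 genes were higher in RD peel, against 25.6% of all genes tested that were higher and 6.34% that were lower. The log2 ratio of RD30 to CK30 was 1.65 for the rubisco small chain, 2.46 for aldolase 2, and 5.11 for carbonic anhydrase, or 3.14-fold, 5.52-fold, and 34.6-fold. Measured from the all-gene median, the log2 ratios were 1.22, 2.03, and 4.68. Carbonic anhydrase had the 4th highest ratio among the 15762 genes that reached 1 FPKM in both peels, where aldolase 2 was 202nd and the rubisco small chain 976th.

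At 80 DAFB none of the 3 differed by 2-fold, beside 5.20% higher and 4.86% lower among all genes tested. The log2 ratio of RD80 to CK80 was -0.20 for the rubisco small chain, -0.35 for aldolase 2, and 0.35 for carbonic anhydrase. Without replicates, it cannot be said whether differences of this size exceed the spread between pools.

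At 170 DAFB all 3 were again higher in RD peel, against 8.14% of all genes tested that were higher and 10.1% that were lower. The log2 ratio of RD170 to CK170 was 3.76 for the rubisco small chain, 4.62 for aldolase 2, and 3.64 for carbonic anhydrase. These were the 21st, 7th, and 27th highest ratios among the 15685 genes reaching 1 FPKM on both sides. The ratio was thus larger at maturity than in young peel for the rubisco small chain and aldolase 2, and smaller for carbonic anhydrase.

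Over development, CK peel covered a wider course than RD peel at both steps. The steps share the 80 DAFB library of each peel, and they share all libraries with the ratios of RD to CK, so they restate the same levels from the side of time. From CK30 to CK80 the rubisco small chain was 4.84-fold higher, aldolase 2 was 14.7-fold higher, and carbonic anhydrase was 75.5-fold higher. The rise of carbonic anhydrase was the highest ratio among the 15405 genes reaching 1 FPKM at both ages. Of all genes tested, 23.4% were higher and 9.06% lower at this step. From RD30 to RD80 the rubisco small chain was 1.34-fold higher, aldolase 2 was 2.09-fold higher, and carbonic anhydrase was 2.78-fold higher, where 7.15% of all genes were higher and 9.44% lower. RD30 thus already held 74.6% of the RD80 level of the rubisco small chain, 47.9% of that of aldolase 2, and 36.0% of that of carbonic anhydrase, whereas CK30 held 20.6%, 6.81%, and 1.33% of the CK80 levels.

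From 80 to 170 DAFB all 3 were lower in both peels. In CK peel they were 206.6-fold, 338.6-fold, and 163.3-fold lower at 170 DAFB, in the order rubisco small chain, aldolase 2, and carbonic anhydrase, which left 0.484%, 0.295%, and 0.613% of the CK80 levels. Aldolase 2 had the 4th lowest ratio among the 15534 genes reaching 1 FPKM at both ages, the rubisco small chain the 13th, and carbonic anhydrase the 16th. Of all genes tested at this step, 14.8% were higher and 17.5% lower. In RD peel the genes were 13.2-fold, 10.8-fold, and 16.7-fold lower, which left 7.55%, 9.25%, and 5.98% of the RD80 levels, where 8.77% of all genes were higher and 17.7% lower. The log2 step was therefore smaller in RD peel by 3.96 for the rubisco small chain, 4.97 for aldolase 2, and 3.29 for carbonic anhydrase.

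The other carbon fixation genes were gathered by their descriptions into a list of 23 genes with the 3 enzymes included, of which 17 reached an FPKM of 10 in some library. The list covered rubisco and its helper proteins, aldolases, carbonic anhydrases, and further Calvin cycle enzymes. Of all genes, 54.1% carried no named protein match, so the list is not complete, and Calvin cycle enzymes without a named match were not analysed here. At 30 DAFB, 13 of 20 genes tested were higher in RD peel, 0 were lower, and their median log2 ratio was 1.18. Measured from the all-gene median, 9 were higher. Both counts include a carbonic anhydrase entry at 0 FPKM in CK30. With an FPKM above 0 in both libraries in place of the floor, 12 were higher as deposited. Over all genes tested, 25.6% were higher at 30 DAFB, 5.20% at 80 DAFB, and 8.14% at 170 DAFB, and these shares stand beside the counts of each list below. Measured from the all-gene median, 2421 of 17419 genes were higher in RD30 and 1873 lower. These numbers stand beside the RD30 counts that are measured in that way. At 80 DAFB, 0 of 18 were higher or lower, and the median log2 ratio was -0.09. At 170 DAFB, 6 of 18 were higher in RD170 with a median log2 ratio of 0.20, and 0 were lower. Without the 3 enzymes, 10 of 17 were higher at 30 DAFB with a median of 1.11, and 3 of 15 at 170 DAFB with a median of 0.12. Measured from the all-gene median, 6 of the 17 were higher at 30 DAFB. The 10 and the 6 include the same entry at 0 FPKM in CK30.

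The 3 further genes that were higher in RD peel at both 30 and 170 DAFB were enzymes of the steps after rubisco and of the return to the acceptor. Chloroplast glyceraldehyde-3-phosphate dehydrogenase carries out the reduction to triose phosphate that follows rubisco. Its subunit A (Cs2g14940) had 75.8 FPKM in CK30, 916 FPKM in CK80, and 8.58 FPKM in CK170. In RD peel it had 271 FPKM in RD30, 617 FPKM in RD80, and 81.5 FPKM in RD170. Subunit B of the same enzyme (Cs3g27520) had 67.5, 285 and 5.23 FPKM in CK peel at the 3 stages, and 228, 274 and 56.9 FPKM in RD peel. Chloroplast fructose-1,6-bisphosphatase (Cs6g07430), which acts on the product of aldolase, had 14.3, 124 and 2.12 FPKM in CK peel, and 55.7, 113 and 13.5 FPKM in RD peel. As with the 3 enzymes above, each was highest at 80 DAFB within either peel and lowest in CK170. Their log2 ratios of RD170 to CK170 were 3.25, 3.44, and 2.67, below those of the 3 enzymes, and their log2 ratios of RD30 to CK30 were 1.84, 1.76, and 1.96.

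**Figure D2:**
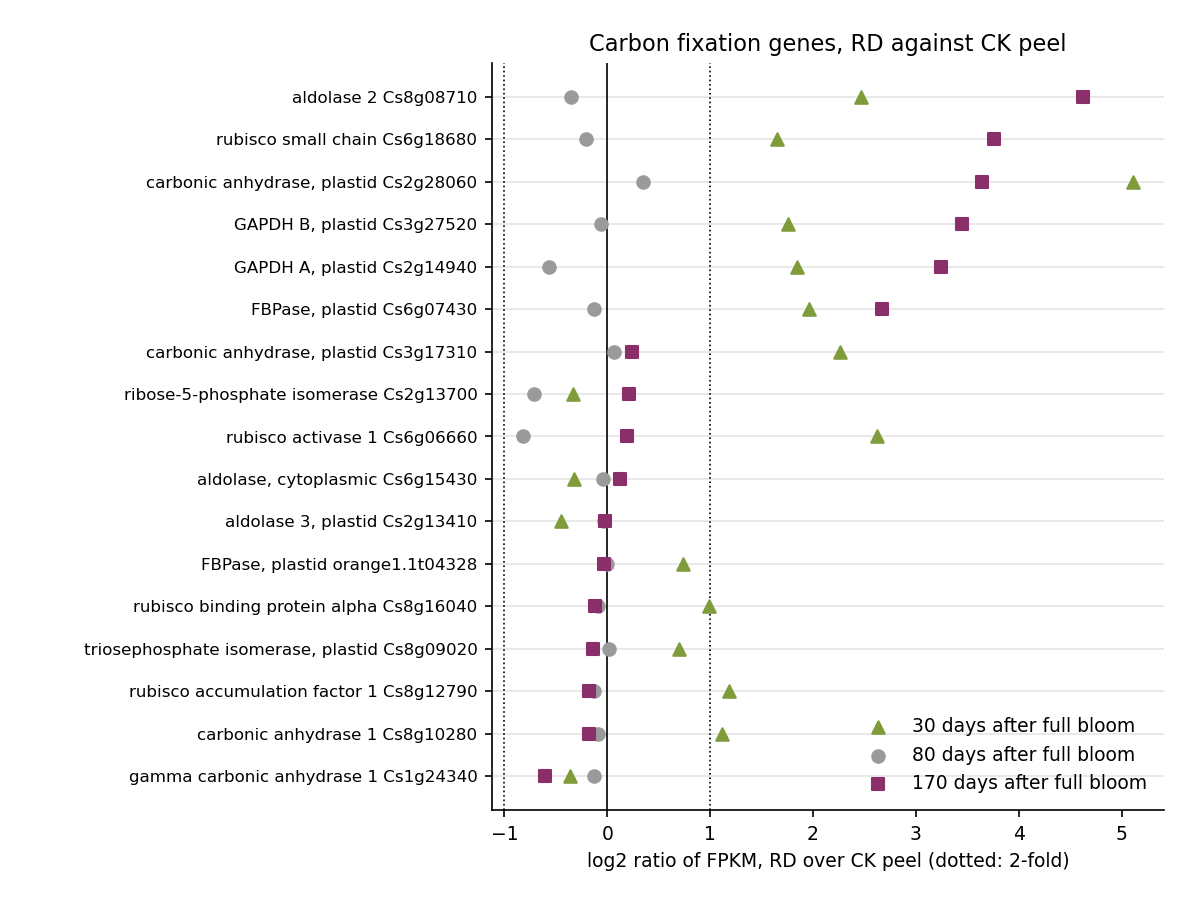
Log2 ratio of FPKM of RD to CK peel for the 17 carbon fixation genes with an FPKM of at least 10 in some library, at 30 DAFB (triangles), 80 DAFB (circles), and 170 DAFB (squares), sorted by the ratio at 170 DAFB, with dotted lines at 2-fold. At 170 DAFB 6 genes lie between 2.67 and 4.62 and the others below 1, while at 80 DAFB no gene passes a dotted line.

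The proteins that assemble or activate rubisco did not differ by 2-fold at maturity. Rubisco activase 1 (Cs6g06660), which frees the active site of bound inhibitors, had 15.2, 105.2 and 39.1 FPKM in CK peel and 93.5, 59.5 and 44.8 FPKM in RD peel at 30, 80, and 170 DAFB. Its log2 ratio of RD to CK was 2.62 at 30 DAFB, -0.82 at 80 DAFB, and 0.19 at 170 DAFB. Rubisco accumulation factor 1 (Cs8g12790), an assembly chaperone, was 2.27-fold higher in RD30, which was under 2-fold when measured from the all-gene median, and had log2 ratios of -0.13 and -0.18 at the later stages. The alpha subunit of the chaperonin that binds the rubisco large subunit (Cs8g16040) ranged from 219.5 FPKM in CK30 to 436.8 FPKM in RD30, and at 1.99-fold this pair lay just under the 2-fold limit. In CK170, where the small chain had 21.4 FPKM, this chaperonin subunit had 369.9 FPKM.

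The aldolases parted by isoform. Aldolase 3 of the chloroplast (Cs2g13410) lay between 121.0 FPKM in RD30 and 215 FPKM in CK170, and the cytoplasmic aldolase (Cs6g15430), which serves glycolysis, between 242.6 FPKM in RD80 and 327.9 FPKM in RD170. Over the 6 libraries they spanned 1.78-fold and 1.35-fold, against 338.6-fold for aldolase 2. Aldolase 2 was thus the leading aldolase transcript in RD30, CK80, and RD80. It was the least abundant in CK170 and in RD170, though close to aldolase 3 in RD170, with 202.5 and 211.5 FPKM.

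Among the carbonic anhydrases, 5 of 6 genes tested were higher in RD30 than in CK30, against 25.6% of all genes, and 3 when measured from the all-gene median. The 5 include Cs2g28060 itself and weak entries with at most 5.45 FPKM in any library. Among the weak entries, 1 had 0 FPKM in CK30 and 1.23 FPKM in RD30. It passed the floor only through RD30 and is among the 3 as well. In RD170, 1 of 5 was higher than in CK170, against 8.14% of all genes, and this 1 was Cs2g28060. A second chloroplast carbonic anhydrase (Cs3g17310) had 5.38, 40.1 and 8.44 FPKM in CK peel and 25.8, 42.0 and 9.95 FPKM in RD peel. Its difference at 30 DAFB was 4.80-fold, in the direction of Cs2g28060, but at 170 DAFB its log2 ratio was 0.24. Carbonic anhydrase 1 (Cs8g10280) had 10.7 FPKM in CK30 and 23.1 FPKM in RD30, a call that was lost when measured from the all-gene median, and 13.6 FPKM in CK170 and 12.0 FPKM in RD170. The mitochondrial gamma carbonic anhydrase 1 (Cs1g24340), a part of respiratory complex I in plants, stayed between 31.4 and 60.1 FPKM. This gene was thus the most abundant of the 4 in CK30, CK170, and RD170, and Cs2g28060 in RD30, CK80, and RD80. The other 4 carbonic anhydrase genes of the list had at most 5.45 FPKM.

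**Figure D3:**
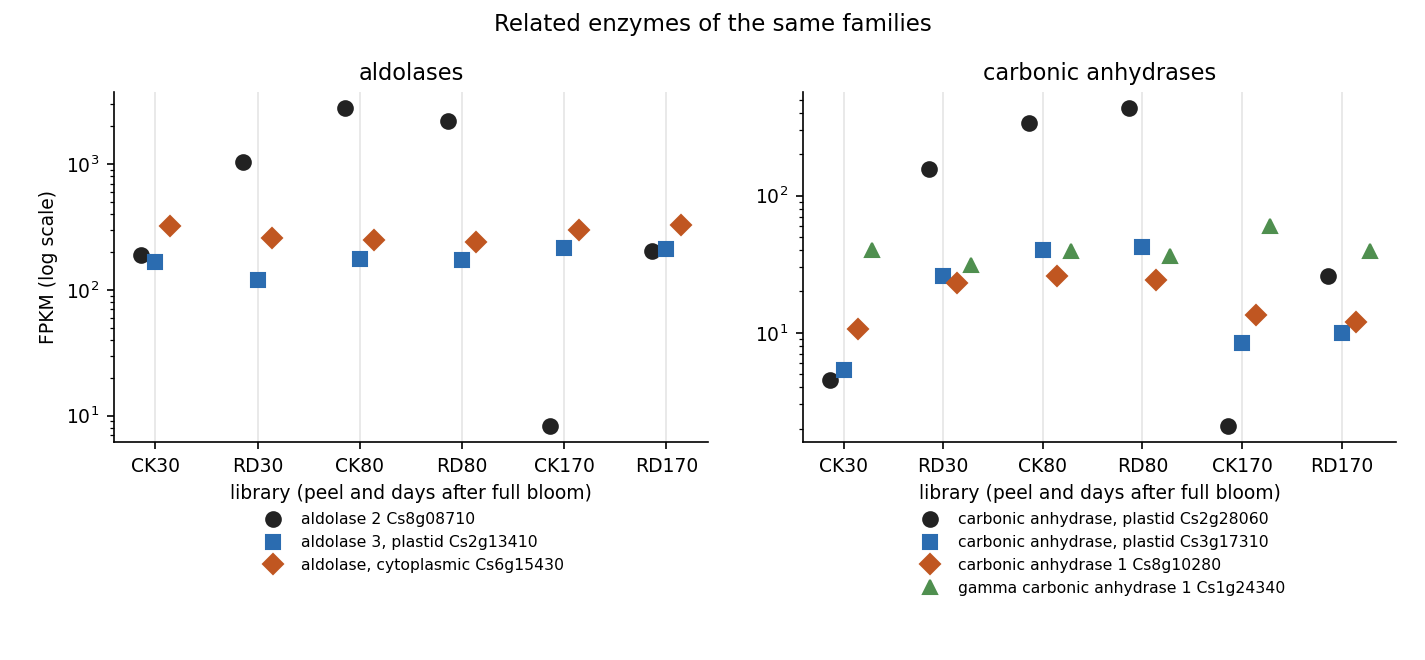
FPKM on a log axis in the 6 libraries for 3 aldolases (left) and 4 carbonic anhydrases (right), 1 symbol per gene and library. Aldolase 2 and carbonic anhydrase Cs2g28060 (black circles) cover 338.6-fold and 208.3-fold, while the cytoplasmic aldolase covers 1.35-fold and the gamma carbonic anhydrase 1.91-fold.

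Among the remaining enzymes, chloroplast triosephosphate isomerase (Cs8g09020), which interconverts the triose phosphates, lay between 74.0 and 136.9 FPKM. The ribose-5-phosphate isomerase Cs2g13700 of the regeneration phase lay between 13.9 and 31.2 FPKM, and the second chloroplast fructose-1,6-bisphosphatase (orange1.1t04328) between 7.5 and 12.5 FPKM. None of these 3 genes differed by 2-fold between RD and CK peel at any stage. At the step from 80 to 170 DAFB, 10 of 19 genes of the list were lower and 1 higher in CK peel, with a median log2 ratio of -1.16. In RD peel 9 of 19 were lower and 1 higher, with a median of -0.89. Without the 3 enzymes, 7 of 16 were lower in CK peel (median -0.83) and 6 of 16 in RD peel (median -0.50), with 1 higher in each. Of all genes tested, 17.5% were lower and 14.8% higher in CK peel, and 17.7% lower and 8.77% higher in RD peel. At the step from 30 to 80 DAFB, 9 of 19 were higher and 1 lower in CK peel, and 4 of 20 were higher and 2 lower in RD peel. Without the 3 enzymes, 6 of 16 were higher and 1 lower in CK peel, and 2 of 17 were higher and 2 lower in RD peel. The all-gene shares at this step were 23.4% higher and 9.06% lower in CK peel, and 7.15% higher and 9.44% lower in RD peel.

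**Figure D4:**
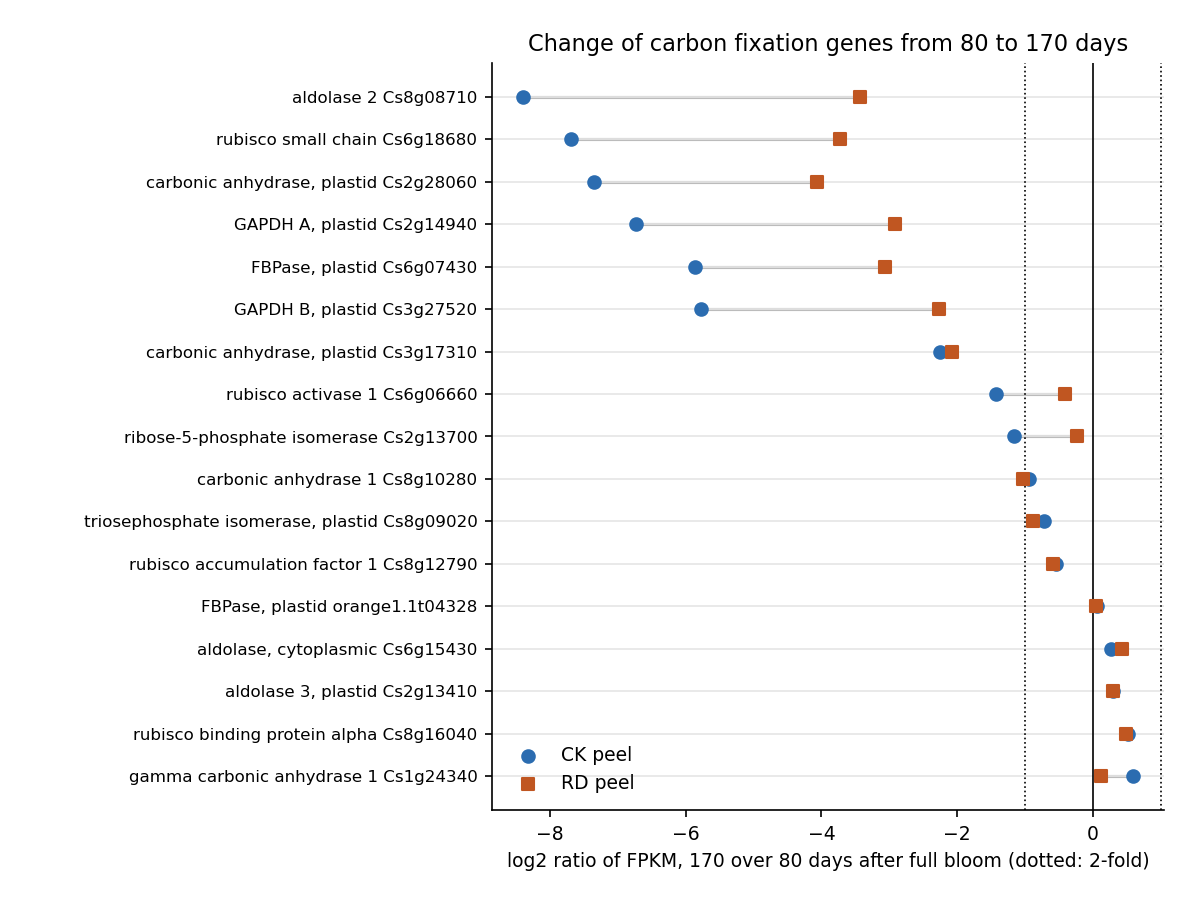
Log2 ratio of FPKM at 170 DAFB to that at 80 DAFB for the same 17 genes, with CK peel as circles, RD peel as squares, and dotted lines at 2-fold. For 6 genes, the 3 enzymes, both dehydrogenase subunits, and 1 fructose-1,6-bisphosphatase, the CK points lie between -8.40 and -5.77 and the RD points between -4.06 and -2.27.

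Genes that work beside carbon fixation in the green plastid were listed for comparison. Of the light reaction genes, 16 of 18 were higher in RD30, 1 of 18 in RD80, and 13 of 17 in RD170, with median log2 ratios of 1.68, -0.17, and 2.18. The all-gene shares were 25.6%, 5.20%, and 8.14%, and measured from the all-gene median 12 were higher in RD30. The 1 higher in RD80 was a chlorophyll a-b binding protein entry with 0 FPKM in CK80 and 6.97 FPKM in RD80. It also counted as higher in RD30, with 0 FPKM in CK30 and 2.68 FPKM in RD30. In RD170, 1 was lower, an ATP synthase gamma chain entry (Cs4g10260, log2 ratio -1.76), named after its value was seen. The antenna gene Cs2g03780 (chlorophyll a-b binding protein 3C) had a log2 ratio of 3.55 at 170 DAFB, and the photosystem II 10 kDa polypeptide (Cs5g15450) one of 1.1. Of the 7 chlorophyll synthesis genes, 5 were higher at 30 DAFB, 0 at 80 DAFB, and 3 at 170 DAFB, beside the same all-gene shares. Measured from the all-gene median, 2 of the 7 were higher at 30 DAFB, beside 2421 of 17419 genes. Among those higher at 170 DAFB were protochlorophyllide reductase (Cs1g06850) and the cyclase listed as magnesium-protoporphyrin IX monomethyl ester (Cs6g16200), with log2 ratios of 2.44 and 1.83 at 170 DAFB.

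Photorespiration salvages the product of rubisco when it takes oxygen in place of carbon dioxide. Its list of 17 genes was drawn by description and includes serine hydroxymethyltransferases not described as mitochondrial, so it may hold genes of other paths. Of these 17 genes, 5 were higher in RD30, 1 in RD80, and 3 in RD170, and the median log2 ratio at 170 DAFB was -0.01. The count in RD30 lay close to the all-gene share of 25.6%, and measured from the all-gene median 3 were higher and 1 lower. At 80 and 170 DAFB the all-gene shares were 5.20% and 8.14%. The 3 genes higher in RD170 were entries with neighbouring IDs for mitochondrial serine hydroxymethyltransferase (Cs1g20690, Cs1g20705, and Cs1g20710), named here after their values were seen, which may share reads. Glycine dehydrogenase (Cs4g18520), of the same mitochondrial step, had 79.5, 268 and 40.7 FPKM in CK peel and 190.8, 243 and 57.5 FPKM in RD peel, and serine hydroxymethyltransferase 4 (orange1.1t01890) had 111.6 FPKM in CK170 and 103.4 FPKM in RD170.

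Plastid ribosomal proteins and glycolysis served as lists outside photosynthesis. Of the plastid ribosomal proteins, 2 of 21 were higher at 30 DAFB, 0 of 22 at 80 DAFB, and 0 of 22 at 170 DAFB, where 1 was lower, against all-gene shares of 25.6%, 5.20%, and 8.14% higher and 10.1% lower at 170 DAFB. Measured from the all-gene median, 1 was higher in RD30 and 0 were lower in RD170. The most abundant by mean, 30S ribosomal proteins S5 (Cs2g05790) and S31 (Cs6g08000), had 88.5 and 54.4 FPKM in CK170 and 113.4 and 49.9 FPKM in RD170. Of the genes of cytosolic glycolysis, 2 of 11 were higher at 30 DAFB, 1 of 12 at 80 DAFB, and 1 of 12 at 170 DAFB, against the same all-gene shares, and measured from the all-gene median 0 were higher at 30 DAFB. The pyruvate kinases Cs2g12320 and Cs6g15670, its most abundant members, had 207.8 and 177.8 FPKM in CK170 and 161.1 and 174.7 FPKM in RD170. Whether the lists differ from each other was not tested, as each comparison had 1 library a side.

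**Figure D5:**
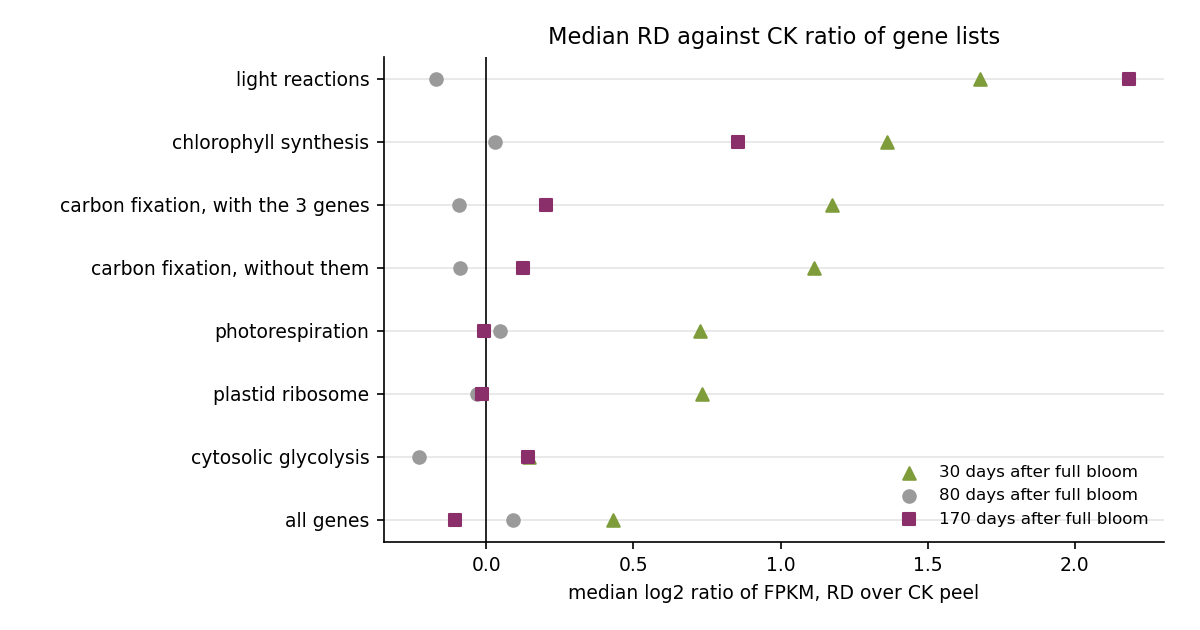
Median log2 ratio of FPKM of RD to CK peel for 7 gene lists and for all genes, at 30 DAFB (triangles), 80 DAFB (circles), and 170 DAFB (squares). At 170 DAFB the light reactions lie at 2.18 and the carbon fixation list without the 3 enzymes at 0.12.

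The transcripts whose course was most like that of each enzyme were sought among 12227 genes with an FPKM of at least 10 in some library. Likeness was the root mean square difference of log2(FPKM + 1) over the 6 libraries after centring each gene on its mean, so that 0 means parallel courses. Nearest to the rubisco small chain was chlorophyll a-b binding protein 8 (Cs3g06180) at 0.14, followed by CP24 (orange1.1t03504) at 0.27, both light-harvesting proteins. The antenna gene Cs2g03780 and the electron carrier ferredoxin-2 (Cs3g03670) followed, both at 0.34, and then the unnamed gene Cs5g18620 at 0.35.

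Nearest to aldolase 2 was an unnamed gene (Cs5g15000) at 0.23, and next came the photosystem II protein psbY (Cs7g09900) at 0.64 and glyceraldehyde-3-phosphate dehydrogenase A (Cs2g14940) at 0.66. CP24 (orange1.1t03504) at 0.67 and chlorophyll a-b binding protein 8 (Cs3g06180) at 0.69 completed the 5 nearest. Carbonic anhydrase had no partner as close as 0.23. Its nearest were the unnamed gene Cs4g08150 at 0.57 and an M-type thioredoxin (Cs3g20630), a redox regulator of chloroplast enzymes, at 0.72. The unnamed genes Cs7g31640 and Cs5g15000, both at 0.96, and Cs5g10850 at 1.04 followed. Among each other, the rubisco small chain and aldolase 2 lay 0.59 apart, aldolase 2 and carbonic anhydrase 1.08, and the rubisco small chain and carbonic anhydrase 1.52. The rubisco small chain was the 2nd nearest gene to aldolase 2, counting the enzymes in, and the 65th nearest to carbonic anhydrase. Aldolase 2 was the 7th nearest to carbonic anhydrase.

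Transcripts of photosynthesis also vary with the hour of the day, and the hour of sampling is not given in the sources used here. Of 11 clock genes, 5 were higher and 0 lower in RD30, 0 were higher and 1 lower in RD80, and 1 was higher and 0 lower in RD170. The all-gene shares were 25.6% higher in RD30, 4.86% lower in RD80, and 8.14% higher in RD170. Measured from the all-gene median, 4 clock genes were higher in RD30 and 2 in RD170, beside 2421 of 17419 and 1581 of 17143 genes. The morning gene LHY (orange1.1t00580) had 135.4 FPKM in CK30 and 103.0 FPKM in RD30, 337.6 FPKM in CK80 and 384.3 FPKM in RD80, and 9.24 FPKM in CK170 and 22.7 FPKM in RD170. The pseudo-response regulator APRR7 (Cs6g03960), another clock component, had 63.0 FPKM in CK30 and 113.0 FPKM in RD30, and 127.6 FPKM in CK170 and 148.3 FPKM in RD170. Like the 3 enzymes, LHY was highest at 80 DAFB and lowest at 170 DAFB in both peels, and more than 2-fold higher in RD170 than in CK170. At 30 DAFB LHY did not differ by 2-fold between the peels. The part of the clock in the results was not tested.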

How the data were processed

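Peel RNA of 6 pooled libraries, 1 per condition, was sequenced by the authors, who removed adapter and low-quality reads and aligned the rest to the sweet orange (Citrus sinensis) genome. The submitters' processing notes name Bowtie, BWA, and RSEM, and their versions are not given in the sources used here. The deposited values are FPKM per gene with the best protein match, for 23099 genes above 0 in at least 1 library. Reads per gene were not analysed here, so counting error cannot be given and no count test was run. Satsuma reads were placed on another Citrus genome, and close copies, such as members of a gene family, may share reads.

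Samples were grouped by their labels. Ratios of FPKM were taken without a pseudocount in 7 comparisons, RD against CK at 3 stages and 2 steps in time for each peel, with a 2-fold limit and an FPKM of at least 1 in the higher library, in Python 3.11.15 with numpy 2.4.6, pandas 2.3.3, and matplotlib 3.10.9. With 1 library per group, no test, SD, or p-value was possible.

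The 3 enzymes, the gene lists, and the rules were chosen with earlier results of these data known. Lists were drawn by words in the descriptions, and wrong matches seen in the descriptions were removed. Named were the 3 enzymes, carbon fixation genes reaching 10 FPKM, the 5 nearest courses per enzyme, and the 2 genes with the highest mean FPKM of each other list. Alternatives were 3 scalings, a pseudocount of 1, and 2 filters, with the list also counted without the 3 enzymes, which was added after seeing the data.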

Additional observations from a re-analysis of the deposited data

Results flagged for a closer look

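Among the 17 carbon fixation genes reaching 10 FPKM, 6 were above CK peel in RD peel at 30 and 170 DAFB and below it at 80 DAFB. Only genes with a 2-fold difference at 30 or 170 DAFB were taken. Weaker genes were left out, though a ribose-5-phosphate isomerase entry among them had the same directions. The share of all genes with these directions was not counted. Each group had 1 library, so the difference between stages was not tested, and none of the differences at 80 DAFB reached 2-fold. For rubisco activase 1 the difference at 170 DAFB, a log2 ratio of 0.19, did not reach it either. At 80 DAFB the log2 ratio of RD to CK was -0.20 for the rubisco small chain (Cs6g18680) and -0.35 for aldolase 2 (Cs8g08710). It was -0.57 for subunit A (Cs2g14940) and -0.058 for subunit B (Cs3g27520) of the chloroplast glyceraldehyde-3-phosphate dehydrogenase. It was -0.82 for rubisco activase 1 (Cs6g06660) and -0.13 for fructose-1,6-bisphosphatase (Cs6g07430).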

How the results depend on the processing

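All 21 log2 ratios of the 3 enzymes kept their direction and their side of the 2-fold limit under the 3 scalings and the pseudocount. The 2 filters change only which genes are counted, so the ratios could not move under them. No paired analysis was possible because the labels give no replicate numbers and each condition had 1 library, and for the same reason no library could be left out. The counts moved more. Relative to the median of all genes, 2421 genes were higher and 1873 lower in RD30, so the higher share of calls went from 80.2% to 56.4%, and for CK80 against CK30 it went from 72.1% to 55.5%. Relative to ACTIN, 6193 genes were higher from CK30 to CK80, 1263 higher and 5237 lower from CK80 to CK170, and 656 higher and 7056 lower from RD80 to RD170. With a pseudocount of 1, 424 genes were higher and 551 lower in RD80 than in CK80, and 840 higher and 1095 lower from RD30 to RD80, where 1 carbon fixation gene was lower. With an FPKM of at least 10, fewer genes were tested: 1851 were higher in RD30, 212 higher and 396 lower in RD80, and 570 higher and 791 lower in RD170. With that filter, 1930 were higher and 850 lower from CK30 to CK80, 1456 higher and 1666 lower from CK80 to CK170, 514 higher and 650 lower from RD30 to RD80, and 820 higher and 1463 lower from RD80 to RD170. The carbon fixation genes that went against the others were then lost, with 0 lower at both steps from 30 to 80 DAFB and 0 higher at both steps from 80 to 170 DAFB. With an FPKM above 0 in both libraries in place of the floor, 1467 genes were higher in RD80 and 2 carbon fixation genes were lower there. From CK30 to CK80, 0 carbon fixation genes were then lower, as this rule leaves out genes with an FPKM of 0 in either library. Without the 3 enzymes, 3 carbon fixation genes were higher in RD170 than in CK170 and 2 from RD30 to RD80.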

Other observations

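Export of fixed carbon and a second route of carbon uptake were looked at after the values had been seen. The triose phosphate translocator of the chloroplast envelope (Cs2g05530), which passes the products of the Calvin cycle to the cytosol, had 91.9 FPKM in CK30, 224 FPKM in CK80, and 6.53 FPKM in CK170. RD peel had 185.8 FPKM at 30 DAFB, 226 FPKM at 80 DAFB, and 45.8 FPKM at 170 DAFB. The log2 ratio of RD to CK was 1.02 at 30 DAFB, which was under 2-fold when measured from the all-gene median of 0.43, and 2.81 at 170 DAFB. The 3 phosphoenolpyruvate carboxylases, which fix bicarbonate in the cytosol, did not differ by 2-fold between RD and CK peel at any stage. Measured from the all-gene median, however, 1 was lower in RD30. The most abundant (Cs8g09580) had 139.0 FPKM in CK170 and 144.2 FPKM in RD170.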
